A study of Mus musculus with 79 samples.

Results

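Pyramidal and VIP neurons of the same unstressed mice were compared directly. The members were the 20 control libraries of these 2 types, of 79 in the series: 10 of pyramidal (PYR) and 10 of vasoactive intestinal peptide (VIP) neurons, chosen by their labels and paired by mouse number. All mice were male C57Bl/6J animals without a transgene named in the labels. Controls lived in groups with littermates, and a second set of 10 mice went through 5 weeks of unpredictable chronic mild stress (UCMS) in single housing. Each library was a pool of 130 cell profiles from 1 mouse, cut by laser out of 12 µm coronal sections of the medial prefrontal cortex after in situ hybridization with RNAscope probes. Parvalbumin (PV) and somatostatin (SST) libraries of the same control mice serve below only as reference levels. Ages are not given in the labels.

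Pyramidal neurons are the excitatory projection cells of the cortex. They release glutamate, loaded into vesicles by the transporter Slc17a7 (VGLUT1), and send axons to other areas. VIP neurons are small GABA-releasing interneurons that arise in the caudal ganglionic eminence, and they are known for inhibiting other interneurons, SST cells above all, so that their activity can release pyramidal cells from inhibition. The comparison therefore sets a principal cell against a disinhibitory interneuron of the same tissue.

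Slc17a7 and Vip were the probed genes and their levels are given as a description only. Slc17a7 ran from 11362 to 16661 (median 14327) normalized counts in pyramidal and from 2740.4 to 8312 (median 4622) in VIP libraries, and Vip from 0 to 71.3 (median 4.38) and 3148 to 7701 (median 4796). Neither gene overlapped between the types. Normalized counts are reads divided by the authors' size factor of the library, and level always means this unit below. Pvalb, the marker of PV cells, was listed at 0 in 6 of 10 pyramidal and 8 of 10 VIP libraries, and Sst averaged 87.2 and 259.8 against 12981 in SST libraries. Summed over their marker lists, PV markers averaged 1378 and 8893 in pyramidal and VIP libraries, SST markers 1606 and 3053, and those of LAMP5 interneurons 1213 and 6135. Each sum was higher in VIP libraries in 10 of 10 mice (exact adjusted p = 0.0053). Those lists hold genes that VIP cells were also high in, such as Erbb4 and Kcnc1 (PV), Elfn1 (SST) and Gad1 (LAMP5), and the sums move with these genes. Lamp5 itself had the higher mean in pyramidal libraries, 338.8 against 144.1 in VIP libraries. Of the 6 LAMP5 markers, 2 lay on the pyramidal and 4 on the VIP side. What other interneurons add to the differences was not tested.

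The captures carried each other's markers to unequal degrees. VIP libraries reached 33.7% of the pyramidal level of Slc17a7, with 17.0% in the lowest and 50.6% in the highest mouse, where the pyramidal libraries reached 0.343% of the VIP level of Vip and 4.98% of that of Gad1. PV and SST libraries held Slc17a7 at 2819 and 3262, so it was detected in all interneuron captures. Summed over the 12 pyramidal markers, the probed Slc17a7 among them, VIP libraries ran from 10685 to 21003 and pyramidal libraries from 33421 to 43175. Slc17a7 alone averaged 4794 of a mean sum of 16282 in VIP and 14218 of 39159 in pyramidal libraries. None of the 12 was at 0 on average in VIP libraries. Summed over 9 general GABA markers, the ranges were 276 to 1185 in pyramidal and 12933 to 17353 in VIP libraries. These levels move with the genes that are higher in pyramidal neurons, and their part in those differences was not tested. In such bulk captures, less RNA per cell and fewer profiles of a type cannot be told apart.

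**Figure D1:**
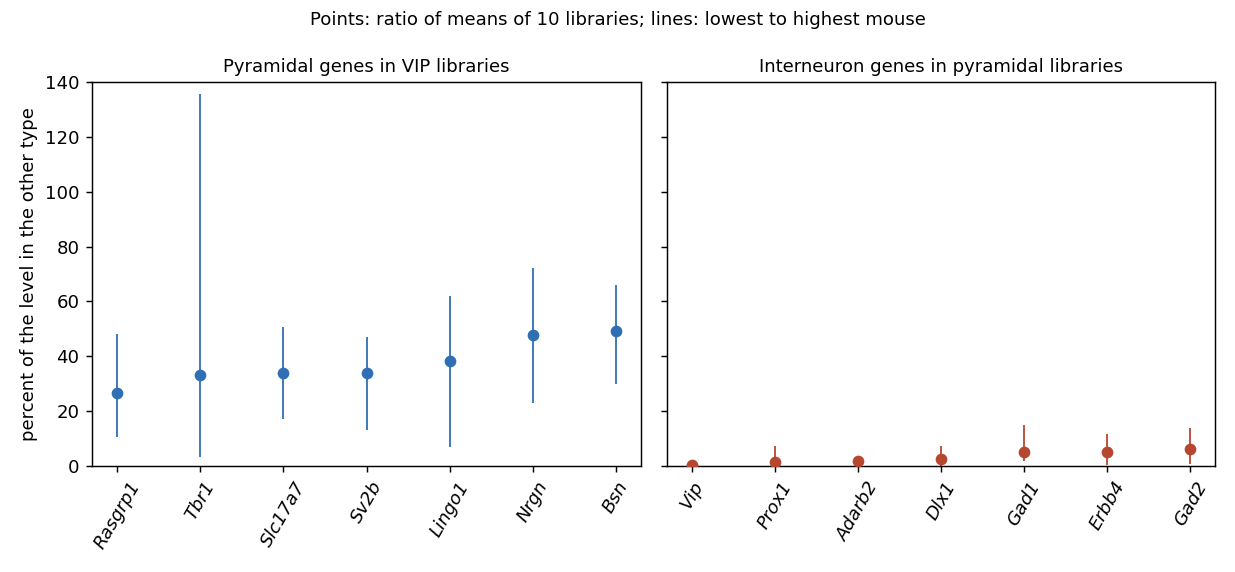
Level of pyramidal genes in VIP libraries (left) and of interneuron genes in pyramidal libraries (right), as a percent of the level in the other type; points are ratios of means of 10 control libraries and lines run from the lowest to the highest mouse. VIP libraries hold 26.4% to 49.1% of the pyramidal level of the genes on the left, and pyramidal libraries 0.343% to 6.04% of the VIP level of those on the right.

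Depth and composition differed as well. Pyramidal libraries held 10170307 to 12727616 reads and VIP libraries 3642579 to 11896948, higher in pyramidal in 9 of 10 mice (exact paired permutation test, two-sided, p = 0.00586, adjusted p = 0.0124 over 19 library measures). VIP libraries of mice 4, 6 and 10 were the shallowest. Reads on protein-coding genes made up 57.9% ± 3.86 (SD, n = 10) in pyramidal and 64.0% ± 2.88 in VIP libraries (exact adjusted p = 0.0297). Reads on microRNA gene models made up 29.0% ± 4.33 and 20.3% ± 2.88, higher in pyramidal in 10 of 10 mice (exact adjusted p = 0.0053), and the 4 gene models with the most reads 32.7% and 26.5% (exact adjusted p = 0.0124). With scaling to protein-coding reads, 636 genes were called in place of 613. The numbers of genes detected were 13922 ± 880.5 and 13610.5 ± 2671, within their spread (exact p = 0.699). Summed markers of astrocytes, oligodendrocytes, their precursors, microglia, endothelium and pericytes did not pass the adjusted threshold (adjusted p of 0.0607 or more). Of the 47 such marker genes tested, 1 was called, the astrocyte marker Aldoc (aldolase C), at 477 ± 295 in pyramidal and 944 ± 358 in VIP libraries, and by own variance none was.

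Across all genes the types differed at a limited set. Of 17487 genes with a mean of at least 10, 613 (3.51%) were called, which means an adjusted p below 0.05 and a difference of at least 2-fold, and 883 (5.05%) passed the adjusted p alone. Of the called genes 265 (1.52% of those tested) were higher in pyramidal and 348 (1.99%) higher in VIP neurons, and 559 were protein-coding. All differences below are on the log2(normalized count + 4) scale, pyramidal minus VIP, so a negative value means higher in VIP neurons. Under quantile normalization the split turned to 368 higher in pyramidal and 322 in VIP neurons, so which type has more called genes depends on the scaling. The median over all genes tested was 0.01.

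These counts depend on how the spread of a gene was estimated. For 92.9% of genes limma replaced the gene's own variance between mice by the trend over genes of like level, so its standard errors are those of a typical gene and its smallest p-values go far below what 10 mice alone could give. With each gene's own variance, an alternative added after seeing the data, 261 genes were called (74 higher in pyramidal and 187 in VIP neurons), 248 of them among the 613. The pyramidal side lost the larger share. The differences given below with a standard error therefore carry both limma's adjusted p and that by own variance. Of the 100 called genes that the naming rule selects, 34 did not pass by own variance, among them Abat, Adora1, Adra1b, Bcl11a, Cacna1i, Cacna2d3, Cacnb2, Chrm1, Chrna4, Cnih3, Egr1, Egr3, Ephb6, Fezf2, Fgf12, Got1, Grm3, Hpca, Htr2a, Htr2c, Junb, Kcnc2, Kcnip3, Necab2, Nefm, Neurod6, Nr4a3, Nrg1, Oprl1, Scn1a, Sdhb, Sstr2 and Tbr1. Of the 94 genes it selects as within 2-fold, 89 stayed within by own variance. Grm5, Nptxr, Olfm1 and Sdha were among those that left that range.

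The directions differed in depth rather than only in number. The median difference was 1.79 over the genes higher in pyramidal and -2.83 over those higher in VIP neurons, and 32 and 157 of them exceeded 8-fold. The lower type held a median of 43.8% of the pyramidal level for the first set and 17.1% of the VIP level for the second. Fewer than 10% remained in the lower type for 11 genes of the pyramidal set and 122 of the VIP set. Of the pyramidal set, 73 genes had a lower VIP share than Slc17a7 itself. The 10 pyramidal and 10 VIP values did not overlap for 30 and 72 of the called genes, and for 130 (0.743%) of all genes tested. A further 2062 genes (11.8%) lay within 2-fold, meaning that the whole 95% interval fell inside 2-fold either way.

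**Figure D2:**
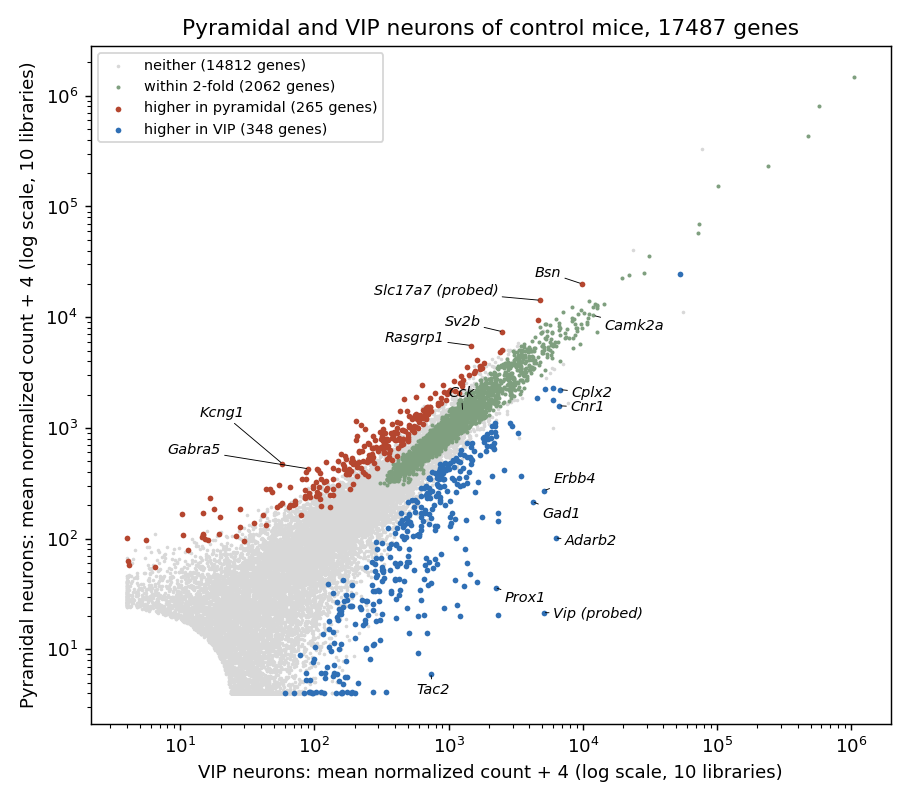
Mean level in VIP (x axis) against pyramidal neurons (y axis) of 10 control mice, each as normalized count + 4 on a log scale, for 17487 genes; red and blue mark the 265 and 348 called genes, green the 2062 within 2-fold. Blue points reach far below the diagonal, down to pyramidal means near 0, while red points stay closer to it except at low levels.

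Single promoter windows were taken without genes on the chromosome of Tcf4, itself a leading VIP gene. Of the other leading genes of each side, 20 had an entry in RefSeq's promoter table (GRCm38.p6). For the strongest interneuron gene, Adarb2, and for Rasgrp1, the strongest pyramidal gene that kept its call under every setting run, the 250 bases before RefSeq's start are shown, since these genes mark the opposite ends of the comparison. Capitals mark TAATTA, the core bound by homeodomain factors of the Dlx kind, and CAGATG or its reverse complement CATCTG, an E-box bound by Neurod factors; both strands were searched.
Adarb2, chr13:8202616-8202865 (+): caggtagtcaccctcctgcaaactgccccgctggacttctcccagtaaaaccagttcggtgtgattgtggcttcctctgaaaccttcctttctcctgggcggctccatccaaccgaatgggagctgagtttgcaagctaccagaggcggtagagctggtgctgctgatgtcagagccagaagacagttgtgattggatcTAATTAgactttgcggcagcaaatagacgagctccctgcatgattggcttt
Rasgrp1, chr2:117342878-117343127 (-): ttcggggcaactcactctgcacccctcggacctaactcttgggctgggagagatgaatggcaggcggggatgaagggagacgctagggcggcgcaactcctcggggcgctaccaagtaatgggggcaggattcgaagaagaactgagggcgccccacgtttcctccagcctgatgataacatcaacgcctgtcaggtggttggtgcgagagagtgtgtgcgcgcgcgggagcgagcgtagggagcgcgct
The window of Adarb2 holds 1 TAATTA and that of Rasgrp1 neither motif. RefSeq's start of Rasgrp1 lies inside the gene coordinates given below, so part of its window falls within the annotated gene. TAATTA occurred in 1.64% of 244 matched windows of genes higher in VIP, 3.21% of 187 of genes higher in pyramidal neurons, 2.61% of all genes tested and 4.90% of all 27025 windows. For CAGATG the shares were 9.84%, 12.3%, 10.6% and 14.5%.

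Genes of the GABA phenotype separated the types. Of 8 genes of GABA synthesis, transport and breakdown, 5 were higher in VIP and none in pyramidal neurons (median difference -2.46; by own variance 0 and 4 were called in pyramidal and VIP neurons). Gad1, which makes the bulk of neuronal GABA, ran from 72.9 to 480.3 (median 163) in pyramidal and 3105 to 6434 (median 4161) in VIP libraries, a log2 difference of -4.58 (SE 0.27, adjusted p = 3.66e-61, by own variance 7.02e-04). Gad2, the synaptic form of the enzyme, gave 11.1 to 285 (median 140.4) and 1289 to 3216 (median 2258), a difference of -4.48 (SE 0.37, adjusted p = 4.57e-31, by own variance 0.00117). Slc32a1, the vesicular GABA transporter, averaged 35.8 ± 53.2 and 733 ± 369 (SD, n = 10). In none of these did the types overlap. The GABA-degrading enzyme Abat averaged 432 ± 161 and 1279.7 ± 612 with overlap. Slc12a5, the potassium-chloride exporter KCC2 that sets the chloride gradient for GABA responses, lay within 2-fold at 4106 and 3964, 0.10 (95% interval -0.15 to 0.34).

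Transcription factors fell on both sides. Of 22 factors of the interneuron lineage, 10 were higher in VIP and none in pyramidal neurons, against 1.99% and 1.52% of all genes (median -2.43; by own variance 0 and 8 were called in pyramidal and VIP neurons). Prox1, a homeodomain factor of caudal-eminence interneurons, ran from 0 to 142 (median 16.1) in pyramidal and 1212 to 3547 (median 1927) in VIP libraries, a log2 difference of -7.02 (SE 0.61, adjusted p = 1.16e-27, by own variance 0.00177). Its mean was 9.63 in PV and 59.4 in SST libraries, so among these 4 captures it was high in VIP libraries alone. Dlx1, a homeodomain factor of all GABA neurons, averaged 36.8 ± 49.5 and 1613 ± 313. Npas1, a bHLH-PAS factor, averaged 10.0 and 689 in pyramidal and VIP libraries, its relative Npas3 48.1 and 681, and the leucine-zipper factor Maf 15.9 and 589, with differences of -6.35, -5.25 and -5.38. All but Npas3 separated the types without overlap. Tcf4, an E protein that pairs with such bHLH factors, was expressed in both types at 1785 ± 354 and 6034 ± 1496, a difference of -1.75 (SE 0.14, adjusted p = 6.44e-34, by own variance 0.00112). Nfix and Nfib, factors of the nuclear factor I family, lay within 2-fold.

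On the pyramidal side, 8 of 25 factors of cortical projection neurons were higher in pyramidal and none in VIP neurons (median 1.28; by own variance 1 and 0 were called in pyramidal and VIP neurons, and 6 higher in pyramidal and 1 in VIP neurons without mice 4, 6 and 10). Tbr1, a T-box factor of deep layers, ran from 486 to 1390.4 (median 968) in pyramidal and 38.3 to 659.6 (median 316) in VIP libraries, a log2 difference of 1.83 (SE 0.36, adjusted p = 2.58e-05, by own variance 0.0713). The ranges overlapped, with the VIP mean at 33.0% of the pyramidal one. By mouse this share of Tbr1 ran from 3.20% to 136%. Fezf2, of subcortical projection neurons, averaged 417 ± 184 and 102 ± 151, and Neurod6 495 ± 259 and 146 ± 106. Bcl11a lost its call without mouse 3 (log2 difference 1.18, adjusted p = 0.0526). Mef2c, an activity-regulated factor of both lineages, lay within 2-fold at 4902 and 3735. By limma's adjusted p alone, 10 of the 25 passed on the pyramidal and 1 on the VIP side. The latter was Cux2, at 786 ± 322 in pyramidal and 1264 ± 283 in VIP libraries. Its log2 difference was -0.80 (limma adjusted p = 0.0401), less than 2-fold, with VIP higher in 10 of 10 mice.

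The genes known from VIP subclasses followed the label. Of 23 measured, 19 were higher in VIP and none in pyramidal neurons (median -3.86; by own variance 0 and 16 were called in pyramidal and VIP neurons; median -3.98 with the 2 genes at 0 in all pyramidal libraries set to their lower bound of 3 reads over the group). Adarb2 (GRCm38 chromosome 13, 8202866 to 8768747), an RNA-binding protein of the editing enzyme family and the strongest statistic of all, ran from 0.783 to 258 (median 52.8) in pyramidal and 4134 to 8464 (median 6326) in VIP libraries, a log2 difference of -6.95 (SE 0.34, adjusted p = 6.33e-86, by own variance 0.00112). PV and SST libraries averaged 76.6 and 60.1, as low as pyramidal libraries. Cxcl14, a chemokine of caudal-eminence cells, averaged 43.9 ± 47.6 and 1450.0 ± 522, and the calcium buffer Calb2 (calretinin) 19.7 ± 32.7 and 922 ± 542. Erbb4, the neuregulin receptor of interneurons, gave 25.1 to 494 (median 272) and 3243 to 7058 (median 5032), a difference of -4.58 (SE 0.24, adjusted p = 1.43e-71, by own variance 0.00161). Its mean in PV libraries was 9404, so this gene is shared with another interneuron type, unlike Adarb2.

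**Figure D3:**
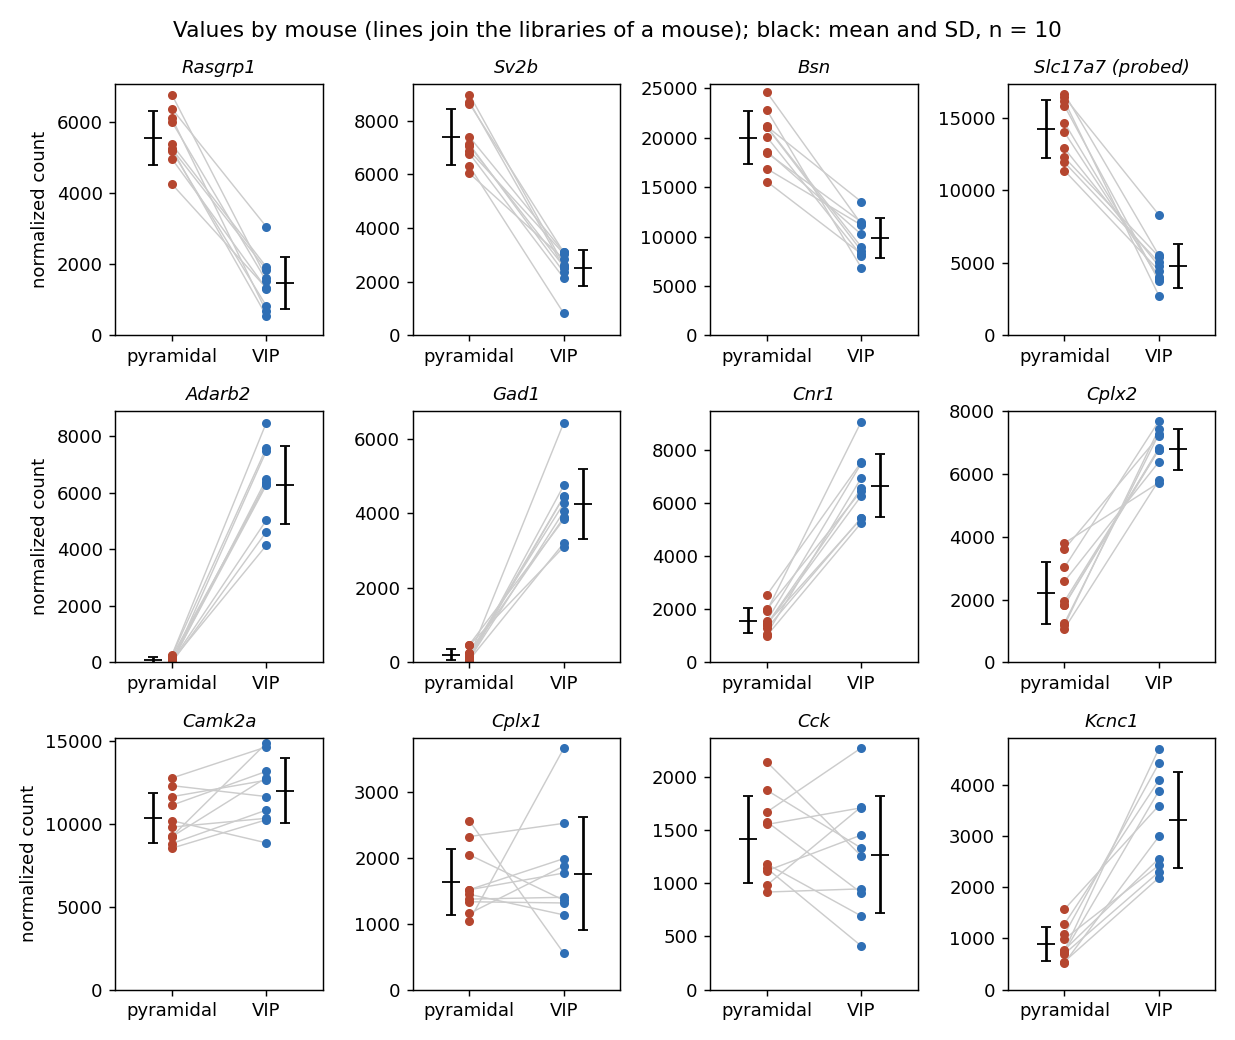
Normalized counts of 12 genes in each control mouse, pyramidal (red) and VIP (blue), with lines joining the libraries of a mouse and black marks for mean and SD (n = 10). The first row is higher in pyramidal and the second in VIP neurons in every mouse; Camk2a, Cplx1 and Cck in the third row overlap, and Kcnc1 separates.

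The leading pyramidal genes were abundant in both captures and differed by degree. Rasgrp1 (GRCm38 chromosome 2, 117279993 to 117343001), a calcium- and diacylglycerol-dependent activator of Ras, ran from 4249 to 6761 (median 5302) in pyramidal and 551 to 3053 (median 1430.0) in VIP libraries, a log2 difference of 2.07 (SE 0.15, adjusted p = 6.28e-40, by own variance 0.00266). Sv2b, a synaptic vesicle glycoprotein, gave 6041 to 8978 (median 7101) and 817 to 3099 (median 2599), a difference of 1.62 (SE 0.12, adjusted p = 3.20e-38, by own variance 0.00167). Both were higher in pyramidal neurons in 10 of 10 mice with no overlap. Fat3, a giant cadherin that shapes dendrites, averaged 4135 ± 675 and 1626 ± 343, and Fras1, an extracellular matrix protein, 1826 ± 396 and 460.3 ± 252. Ephb6, a kinase-dead Eph receptor, averaged 1894 ± 459 and 569.7 ± 269, the actin nucleator Cobl 2936 ± 479 and 1237 ± 630.4, and Rap1gap2, which switches off the small GTPase Rap1, 2439 ± 630.2 and 912 ± 497. Lingo1, a leucine-rich repeat protein of the Nogo receptor complex, gave 1.57 (SE 0.17, adjusted p = 6.71e-17, by own variance 0.0297) with slight overlap. Sorl1, a sorting receptor for the amyloid precursor protein, differed by 1.05 but met the 2-fold limit narrowly: without mouse 3 it was 1.00.

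Of 29 genes known from pyramidal subclasses, 11 were higher in pyramidal and 2 in VIP neurons, while 9 lay within 2-fold (median 0.89; by own variance 7 and 1 were called in pyramidal and VIP neurons, and 9 and 2 called without mice 4, 6 and 10). Nrgn, a calmodulin-binding protein of spines, averaged 3590.2 ± 612 and 1714 ± 589, a difference of 1.13 (SE 0.16, adjusted p = 2.98e-10, by own variance 0.00366). The VIP-higher exceptions were Rasgrf2, a Ras and Rac exchange factor, at 676 ± 339 and 1922 ± 769 (-1.54, SE 0.24, adjusted p = 3.41e-08, by own variance 7.02e-04), and Enpp2, the enzyme autotaxin, with a difference of -1.19, which was not called by own variance. Camk2a, the kinase commonly used to mark excitatory neurons, lay within 2-fold. It ran from 8539 to 12773 (median 10006) in pyramidal and 8862 to 14875 (median 12148) in VIP libraries, a difference of -0.21 (95% interval -0.35 to -0.06). Olfm1 and Nptxr, an olfactomedin and a pentraxin receptor of synapses, passed the adjusted p under 2-fold, at 0.78 and 0.75. The lower Slc17a7 and a Camk2a within 2-fold were measured in the same VIP libraries.

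Called neuropeptide genes were all higher in VIP neurons. Of 11 measured, 5 were higher in VIP and none in pyramidal neurons, and 1 lay within 2-fold (median -1.89; by own variance 0 and 5 were called in pyramidal and VIP neurons). Tac2, the precursor of neurokinin B, was at 0 in 9 of 10 pyramidal libraries and ran from 266 to 1536 (median 631) in VIP libraries, a log2 difference of -7.05 (SE 0.90, adjusted p = 2.14e-12, by own variance 6.91e-05). Penk, the enkephalin precursor, averaged 33.3 ± 47.5 and 1296 ± 536, a difference of -6.19 (SE 0.70, adjusted p = 8.28e-16, by own variance 0.00171). Crh, corticotropin-releasing hormone, was at 0 in 8 pyramidal libraries and averaged 336 ± 262 in VIP libraries. Pnoc, the nociceptin precursor, averaged 3.27 ± 9.78 and 135 ± 118. Npy was lower throughout, 23.4 ± 26.8 and 244 ± 274 against 2884 in SST libraries, and lost its call without mice 4, 6 and 10 (log2 difference -3.04, adjusted p = 0.0586). Cck, cholecystokinin, which both pyramidal cells and a class of VIP cells make, ran from 917 to 2137 (median 1365) in pyramidal and 409.8 to 2269.9 (median 1292) in VIP libraries, a difference of 0.25 (95% interval -0.19 to 0.68). Sst did not pass the test at 87.2 ± 111 and 259.8 ± 335 (adjusted p = 0.34).

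Peptide receptors split. Of 17 measured, 2 were higher in each type (by own variance 0 and 2 were called in pyramidal and VIP neurons). Npy2r, an inhibitory receptor for neuropeptide Y, was near 0 outside VIP cells, at 9.95 ± 18.7 in pyramidal, 505 ± 272 in VIP, 3.63 in PV and 8.56 in SST libraries, a difference of -5.77 (SE 0.89, adjusted p = 1.78e-08, by own variance 8.78e-04). Adcyap1r1, the PACAP receptor, was expressed in both types at 792 ± 309.9 and 1977 ± 595. The pyramidal-higher pair, the somatostatin receptor Sstr2 (159.9 ± 85.2 and 76.0 ± 141) and the nociceptin receptor Oprl1 (378 ± 160.4 and 167 ± 212), were not stable. Each lost its call without any of 5 mice, for example without mouse 1 (log2 difference 2.94, adjusted p = 0.055 for Sstr2 and log2 difference 2.10, adjusted p = 0.059 for Oprl1). No peptide receptor lay within 2-fold with its whole interval.

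Among ionotropic glutamate receptors the kainate subunits were divided. Of 21 AMPA, kainate and delta receptor subunits and their auxiliary proteins, 2 were higher in pyramidal and 4 in VIP neurons, and 8 lay within 2-fold (median -0.18; by own variance 1 and 3 were called in pyramidal and VIP neurons). Grik1 (GluK1) ran from 0.742 to 194 (median 28.6) in pyramidal and 83.9 to 1099 (median 766) in VIP libraries, a log2 difference of -4.66 (SE 0.73, adjusted p = 3.40e-08, by own variance 0.0284). Grik2 (GluK2) averaged 806 ± 226 and 1939 ± 795, a difference of -1.21 (SE 0.23, adjusted p = 9.17e-06, by own variance 0.0348). Grik3 (GluK3) went the other way, from 1462 to 2795 (median 2147) in pyramidal and 182 to 1338 (median 823) in VIP libraries, a log2 difference of 1.50 (SE 0.23, adjusted p = 6.30e-09, by own variance 0.0481), without overlap. Grik5, the obligate partner subunit, lay within 2-fold at 1960.0 and 1654. SST libraries held more Grik1 and Grik3 than either, at 2763 and 4563. The leading kainate genes differed in direction between the same libraries.

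Of the AMPA pore subunits, Gria1 averaged 4376 ± 631 and 4652 ± 1103, -0.06 (95% interval -0.29 to 0.17), and Gria2, which makes the receptor calcium-impermeable, 5737 ± 729.7 and 5914 ± 331, -0.05 (95% interval -0.25 to 0.15). Gria3 was higher in pyramidal neurons by less than 2-fold, at 2353 ± 514 and 1417 ± 679, a difference of 0.88 (95% interval 0.51 to 1.25, adjusted p = 1.87e-04), in 8 of 10 mice. Among auxiliary subunits the cornichon Cnih3, which slows AMPA currents, averaged 767 ± 262 and 200.4 ± 141 (2.66, SE 0.48, adjusted p = 3.74e-06, by own variance 0.14), and the TARP-family gene Cacng5 16.9 ± 29.1 and 315 ± 220.2 (-4.74, SE 0.92, adjusted p = 2.11e-05, by own variance 0.0115). Of 6 NMDA receptor subunits 1 was called. Grin2d, whose receptors are slow and weakly blocked by magnesium, averaged 126 ± 91.8 and 624 ± 217, a difference of -2.77 (SE 0.55, adjusted p = 4.03e-05, by own variance 0.045) without overlap, and stood at 639.9 in PV and 636 in SST libraries. Grin2b and Grin1 lay within 2-fold, Grin2b with a difference of -0.10 (95% interval -0.23 to 0.03). Of 7 metabotropic receptors, Grm3 was called in pyramidal neurons, but had an adjusted p of 0.35 with no replicate block.

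Of 13 GABA-A subunits and their scaffold, 7 lay within 2-fold and 1 was called, where 3.51% of all genes were. Gabra5, the α5 subunit of extrasynaptic receptors, averaged 423 ± 199 and 86.3 ± 101, a difference of 3.35 (SE 0.74, adjusted p = 3.63e-04, by own variance 0.0481), with VIP libraries at 20.4% of the pyramidal level, below the share of Slc17a7. Gabrb1, a β subunit, lay within 2-fold at 0.25 (95% interval -0.14 to 0.63). Of 9 genes of GABA-B receptors and the potassium channels they open, none was called by limma, 1 passed the adjusted p without the 2-fold limit, and edgeR also called none. That gene was Gabbr2, 5021 ± 761 in pyramidal and 3399 ± 678 in VIP libraries (0.57, 95% interval 0.33 to 0.81). Its partner Gabbr1 averaged 4951 and 4938.

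Receptors for modulators differed by subtype. Of 18 serotonin and acetylcholine receptor genes, 2 were higher in pyramidal and 3 in VIP neurons (by own variance 0 and 1 were called in pyramidal and VIP neurons). Htr3a, the serotonin-gated channel, was at 0 in 7 of 10 pyramidal libraries and ran from 254 to 1894 (median 1171) in VIP libraries, a log2 difference of -7.50 (SE 0.83, adjusted p = 1.54e-16, by own variance 7.02e-04), and averaged 0.925 in PV and 0.331 in SST libraries. Htr2c averaged 163 ± 153 and 705 ± 309, a difference of -2.56 (SE 0.55, adjusted p = 1.81e-04, by own variance 0.167). Htr2a, the related receptor studied in pyramidal cells, had the opposite sign at 197 ± 122 and 65.3 ± 136, but lost its call without mouse 9 (log2 difference 2.86, adjusted p = 0.057). Chrm1, the main cortical muscarinic receptor, ran from 1611 to 2333 (median 1774) in pyramidal and 189 to 1489.6 (median 849) in VIP libraries, a log2 difference of 1.23 (SE 0.22, adjusted p = 4.90e-06, by own variance 0.0526). The nicotinic subunit Chrna4 was higher in VIP libraries at 417 ± 193 and 957 ± 347, with an adjusted p of 0.0593 without mice 4, 6 and 10. Its partner Chrnb2 lay within 2-fold at 453 and 553.

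Of 12 monoamine, cannabinoid and adenosine receptors 2 were higher in each type (by own variance 1 and 1 were called in pyramidal and VIP neurons). Cnr1, the CB1 cannabinoid receptor that reduces transmitter release, ran from 1014 to 2550.1 (median 1457) in pyramidal and 5269 to 9089 (median 6523) in VIP libraries, a log2 difference of -2.11 (SE 0.14, adjusted p = 4.99e-49, by own variance 6.91e-05). Its levels in PV and SST libraries were 539 and 1672, so the VIP capture was the highest of the 4. The α1 adrenoceptors divided. Adra1b averaged 148 ± 119 and 732 ± 412 (-2.76, SE 0.53, adjusted p = 1.38e-05, by own variance 0.073), and Adra1d 179.7 ± 118 and 13.9 ± 21.2 (3.98, SE 0.94, adjusted p = 0.00116, by own variance 0.0117). VIP libraries held 7.72% of the pyramidal level of Adra1d, the lowest share among the receptors named. Adora1, the adenosine A1 receptor, averaged 894 ± 477 and 369.9 ± 224, higher in pyramidal in 8 of 10 mice.

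**Figure D4:**
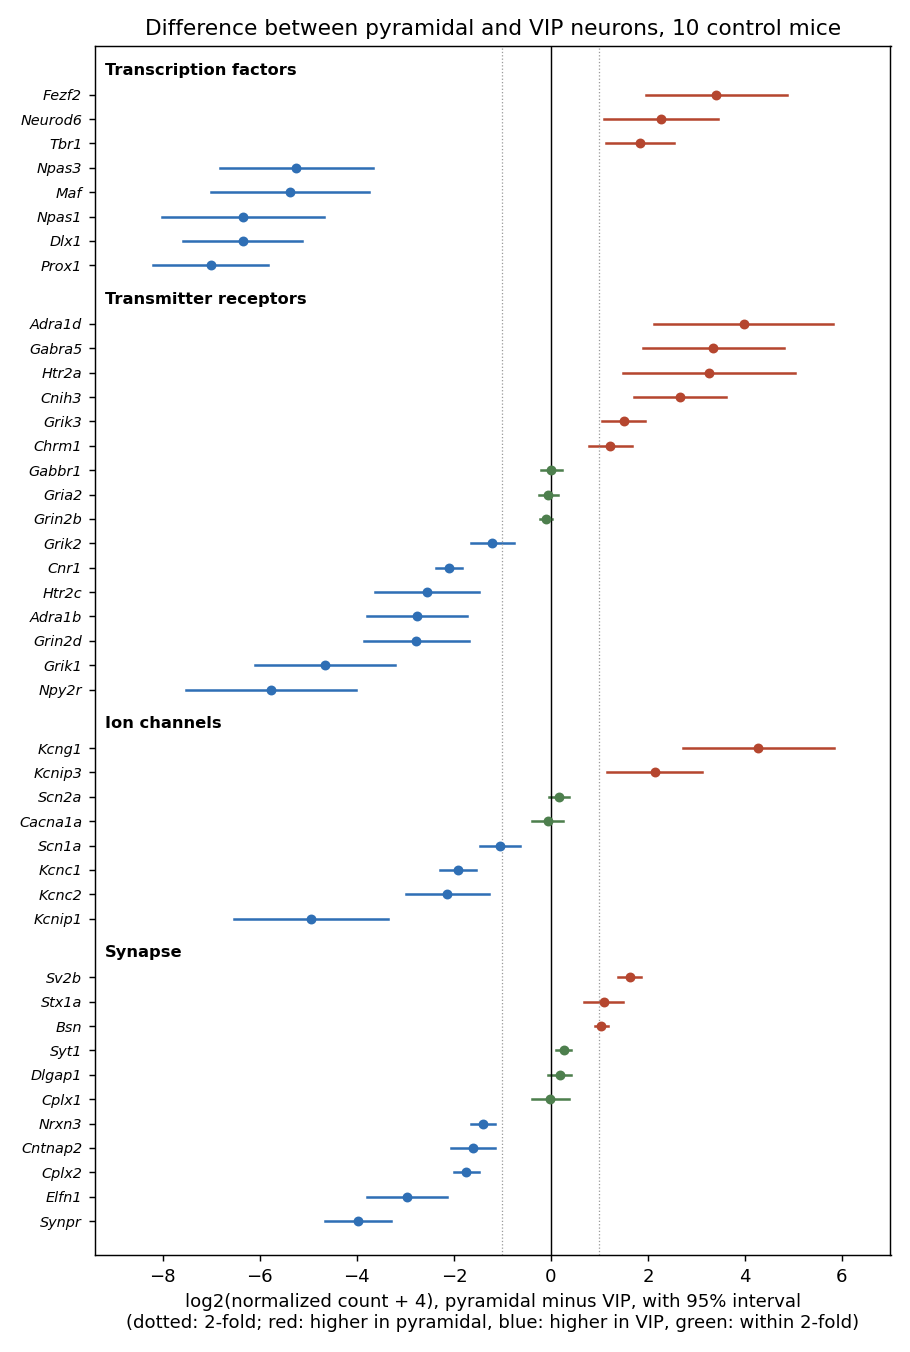
Difference between pyramidal and VIP neurons of 10 control mice for named genes of 4 groups, on the log2(normalized count + 4) scale with 95% intervals; dotted lines mark 2-fold. Within each group genes lie on both sides, with green genes such as Gria2, Grin2b and Cplx1 held inside 2-fold between them.

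Voltage-gated channel genes were called in both directions. Of 43 potassium channel genes, 5 were higher in pyramidal and 3 in VIP neurons, and 13 lay within 2-fold (median 0.14; by own variance 1 and 2 were called in pyramidal and VIP neurons, and 3 and 4 without mice 4, 6 and 10). Kcnc1 (Kv3.1), which permits fast spiking, ran from 519.6 to 1567 (median 770.1) in pyramidal and 2182 to 4701 (median 3289.8) in VIP libraries, a log2 difference of -1.91 (SE 0.19, adjusted p = 2.00e-20, by own variance 7.88e-04). Kcnc2 (Kv3.2) averaged 219 ± 138 and 861 ± 522. Both were higher again in PV libraries, at 7734 and 5643. Kcnip1, a cytoplasmic subunit of Kv4 channels, averaged 48.0 ± 72.2 and 552 ± 309 (-4.94, SE 0.81, adjusted p = 1.22e-07, by own variance 0.0179), while its paralog Kcnip3 averaged 611 ± 228 and 212 ± 204 (2.14, SE 0.50, adjusted p = 8.72e-04, by own variance 0.227). Kcng1, a silent subunit that modifies other potassium channels, averaged 471 ± 200.1 and 53.7 ± 64.8 (4.28, SE 0.79, adjusted p = 6.71e-06, by own variance 0.0232), with VIP libraries at 11.4% of the pyramidal level.

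Of 12 sodium channel genes 2 were higher in VIP neurons and 5 lay within 2-fold (by own variance 0 and 0 were called in pyramidal and VIP neurons). Scn1a (Nav1.1), the interneuron-rich channel of Dravet syndrome, averaged 1034 ± 369 and 2114 ± 658 (-1.05, SE 0.21, adjusted p = 3.23e-05, by own variance 0.0581). Its difference was near 2-fold and fell under it without mouse 4 (-0.94) or mouse 6 (-0.97), with adjusted p still below the threshold. The other was Fgf12, a channel-binding factor, 502 ± 292 and 1175 ± 588, at an adjusted p of 0.0711 without mice 4, 6 and 10. Scn2a (Nav1.2) lay within 2-fold, 0.17 (95% interval -0.03 to 0.36). Of 15 calcium channel genes 8 lay within 2-fold (by own variance 0 and 0 were called in pyramidal and VIP neurons). The 3 calls, the T-type pore Cacna1i in pyramidal and the auxiliary Cacna2d3 and Cacnb2 in VIP neurons, all lost the 2-fold limit or the adjusted p without mouse 9 (log2 differences of 0.94, -0.97 and -0.96). The split also turned with the scaling, to 3 pyramidal and 0 VIP calls under quantile normalization and in edgeR, and 3 and 1 with scaling to protein-coding reads. Of 5 HCN channel genes none was called by limma or edgeR and 1 passed the adjusted p alone. Over all genes 3.51% were called and 11.8% lay within 2-fold, so nothing is read from the low counts called in these short lists.

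At the presynapse, 1 of the complexins, small proteins that clamp and trigger vesicle fusion, was called. Cplx2 (GRCm38 chromosome 13, 54371349 to 54383917) ran from 1075 to 3797 (median 1893) in pyramidal and 5721 to 7677 (median 6796) in VIP libraries, a log2 difference of -1.74 (SE 0.13, adjusted p = 8.33e-39, by own variance 0.00415), higher in VIP in 10 of 10 mice. Cplx1 ran from 1049 to 2560.4 (median 1483) and 553 to 3666 (median 1587), a difference of -0.01 (limma's 95% interval -0.39 to 0.38). Single mice went far apart in both directions, with 2560.4 in the pyramidal and 553 in the VIP library of mouse 4. In mouse 10 these were 1049 and 3666. Cplx3 was at 0 in 9 pyramidal and 2 VIP libraries and did not pass the test (adjusted p = 0.12). Per kilobase of exon, Cplx1 exceeded Cplx2 in pyramidal libraries, 746 against 449 normalized counts, and Cplx2 exceeded Cplx1 in VIP libraries, 1376 against 804. That order was read from means and not tested. In PV and SST libraries Cplx2 averaged 1360.1 and 3286, both below the VIP level.

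Over all 35 release genes, 5 were higher in pyramidal and 2 in VIP neurons, and 14 lay within 2-fold (median 0.21; by own variance 3 and 2 were called in pyramidal and VIP neurons, and 3 and 2 called without mice 4, 6 and 10). Bsn (Bassoon), a giant active-zone scaffold, ran from 15561 to 24599 (median 20574) in pyramidal and 6840.5 to 13525 (median 9584) in VIP libraries, a log2 difference of 1.04 (SE 0.07, adjusted p = 1.65e-51, by own variance 0.00254). It had the strongest statistic of all unprobed pyramidal genes, yet lay so near 2-fold that it fell to 0.96 without mouse 10 and 0.95 under quantile normalization. Its partner Pclo (Piccolo) stayed within 2-fold, 0.26 (95% interval 0.11 to 0.41). The t-SNARE Stx1a averaged 2191 ± 536 and 1022 ± 197 (1.09, SE 0.20, adjusted p = 8.80e-06, by own variance 0.0054). Synpr (synaptoporin), a vesicle membrane protein, averaged 168 ± 121 and 2326 ± 1064 (-3.98, SE 0.34, adjusted p = 5.44e-28, by own variance 0.00206). The calcium sensor Syt1 lay within 2-fold at 9783 and 8334.

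Synaptic adhesion genes were split in both directions. Of 46, 4 were higher in pyramidal and 5 in VIP neurons, and 15 lay within 2-fold (median -0.04, or 0.08 under quantile normalization; by own variance 2 and 5 were called in pyramidal and VIP neurons). Nrxn3, a presynaptic neurexin, ran from 1803 to 3082 (median 2182) in pyramidal and 4709 to 7369 (median 5911) in VIP libraries, a log2 difference of -1.40 (SE 0.13, adjusted p = 1.27e-24, by own variance 7.02e-04), without overlap. Elfn1, a postsynaptic protein that recruits presynaptic metabotropic glutamate receptors, averaged 147 ± 64.2 and 1112 ± 435 (-2.97, SE 0.42, adjusted p = 4.15e-10, by own variance 0.00314), with 2862 in SST and 81.5 in PV libraries. Cntnap2, a neurexin-like protein of axons, averaged 687 ± 206 and 2069.8 ± 532. The secreted cerebellin Cbln2 averaged 131 ± 134 and 714 ± 339.8 (-3.01, SE 0.55, adjusted p = 5.69e-06, by own variance 0.0122) and the protocadherin Pcdh8 196 ± 136 and 941 ± 289 (-2.60, SE 0.43, adjusted p = 2.73e-07, by own variance 0.0184). These 2 were low in PV libraries, at 87.9 and 139.9.

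Postsynaptic scaffolds of the excitatory synapse were mostly within 2-fold. Of 23 measured, 19 lay within 2-fold, none was higher in pyramidal neurons and 1 was higher in VIP neurons (median 0.17). For comparison, 76.0% of the 1348 genes with a mean of at least 1000 lay within 2-fold, and 7.34% of them were called. Dlgap1, which links PSD-95 to Shank proteins, averaged 4473 ± 468 and 3959 ± 533, 0.18 (95% interval -0.05 to 0.42). Shank1 and Kalrn, a spine scaffold and a guanine nucleotide exchange factor of spines, passed the adjusted p in opposite directions within 2-fold, at -0.38 (95% interval -0.56 to -0.20) and 0.60 (95% interval 0.43 to 0.77). The call was Homer2, 407 ± 236 and 846 ± 360.5, which had an adjusted p of 0.0918 without mouse 1. The pyramidal transcripts measured in VIP libraries, given above, move with these levels too, and their part was not tested.

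Of 25 calcium signalling genes, 5 were higher in pyramidal and 1 in VIP neurons, and 12 lay within 2-fold (median 0.45; by own variance 4 and 1 were called in pyramidal and VIP neurons, and 3 and 1 called without mice 4, 6 and 10). Protein kinase C genes were called in both directions. Prkcb averaged 5072 ± 857 and 2479.7 ± 843 (1.09, SE 0.13, adjusted p = 1.10e-13, by own variance 0.00607), while Prkca was higher in VIP neurons at 875 ± 216 and 1928 ± 473 (-1.14, SE 0.22, adjusted p = 1.86e-05, by own variance 0.0195). Itpr1, the inositol trisphosphate receptor of the endoplasmic reticulum, averaged 9439 ± 1179.9 and 4668 ± 1115 (1.04, SE 0.10, adjusted p = 2.36e-24, by own variance 0.00149). These lie close to 2-fold: Prkca fell to -0.99 without mouse 2, and Itpr1 to 1.00 without mouse 9, all with adjusted p below the threshold. Ryr2, the ryanodine receptor, and the calmodulin gene Calm3 lay within 2-fold, at 0.35 and -0.02. Of 14 genes of other calcium-binding proteins, 2 were called in each direction and 5 lay within 2-fold. Besides Nrgn and Calb2 these were Hpca (hippocalcin), with an adjusted p of 0.077 without mouse 10, and Necab2, with 0.0558 without mouse 6.

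Of 18 activity-dependent immediate early genes, 4 were higher in pyramidal and none in VIP neurons (median 1.31; by own variance 0 and 0 were called in pyramidal and VIP neurons; against 0.01 over all genes). Nr4a3, an orphan nuclear receptor, averaged 472 ± 176 and 159 ± 132, a difference of 2.23 (SE 0.58, adjusted p = 0.00427, by own variance 0.0854), higher in 10 of 10 mice. The other calls were Egr1 (917 ± 329.9 and 544 ± 379), Egr3 (381 ± 196 and 236 ± 325) and Junb (295 ± 133 and 93.8 ± 113), transcription factors induced within minutes of firing. None of the 4 calls held by own variance. Egr1 had an adjusted p of 0.371 with no replicate block and 0.191 without mouse 3, Egr3 0.119 without mouse 10, and Junb 0.276 without mice 4, 6 and 10. On recovered reads edgeR called 1 of the 18.

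Of 13 neuregulin, neurotrophin and related genes, 3 were higher in VIP and 1 in pyramidal neurons (by own variance 0 and 3 were called in pyramidal and VIP neurons). Igf1, insulin-like growth factor 1, averaged 16.3 ± 34.3 and 649 ± 327 (-6.21, SE 0.88, adjusted p = 3.25e-10, by own variance 0.00112), at 0 in 6 pyramidal libraries, and 38.1 and 420.2 in PV and SST libraries. Its receptor Igf1r lay within 2-fold at 985 and 1136. Fgf1 averaged 40.1 ± 56.4 and 325 ± 181 (-3.96, SE 0.88, adjusted p = 3.66e-04, by own variance 0.0181). The neuregulin Nrg1, a ligand of Erbb4, was called in pyramidal neurons at 279.9 ± 134 and 119 ± 128, but not without mouse 1 (log2 difference 2.20, adjusted p = 0.0878). The neurotrophin receptors Ntrk2 and Ntrk3 lay within 2-fold, at -0.30 (95% interval -0.52 to -0.08) and -0.31 (95% interval -0.56 to -0.05).

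The 12 genes with the narrowest bounds around equality among those of mean 100 or more included the spectrins Sptan1 and Sptbn1, which line the axonal membrane, at differences of -0.03 (95% interval -0.16 to 0.11) and 0.03 (95% interval -0.11 to 0.17). They also included the kinesin motors Kif1a, 13008 ± 1301 in pyramidal and 12787 ± 2409 in VIP libraries, and Kif5a, 8609 ± 1547 and 8756 ± 1657. Unc80, a part of the sodium leak channel, averaged 6897 ± 862 and 6813 ± 1238. The microtubule protein Map1b, the calmodulin gene Calm3 and the ubiquitin ligases Ttc3, Ubr4 and Hectd4 also belong to the set. A bound this narrow needs high counts, so equality of less abundant genes was not detectable at this depth.

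Of 26 general neuronal genes, 20 lay within 2-fold, 1 was higher in pyramidal and 1 in VIP neurons (median 0.24). Among the 1348 genes with a mean of at least 1000, 76.0% lay within 2-fold and 7.34% were called. Over all genes tested these shares were 11.8% and 3.51%. The counts are near those of abundant genes and are not read as a trait of the list. Rbfox3 (NeuN), the common nuclear marker, averaged 1071 ± 258 and 1170.4 ± 398, -0.09 (95% interval -0.56 to 0.37). Some of the 26 passed the adjusted p within 2-fold, among them Snap25 at 0.53 and Dnm1 (dynamin) at 0.67, higher in pyramidal, and Map2 at -0.34, higher in VIP neurons. Stmn2 was higher in pyramidal neurons at 1515 ± 523 and 681 ± 315 (1.21, SE 0.25, adjusted p = 1.40e-04, by own variance 0.0241), as was the related microtubule destabilizer Stmn1 at 3004 ± 373 and 1411 ± 386 (1.13, SE 0.17, adjusted p = 1.17e-08, by own variance 0.00586). Meg3, an imprinted non-coding RNA, was higher in VIP neurons at 24508 ± 3948 and 52993 ± 14353 (-1.09, SE 0.13, adjusted p = 9.22e-04, by own variance 0.00397), but by -0.80 under quantile normalization and -0.92 without mice 4, 6 and 10, less than 2-fold. Of 22 cytoskeletal genes 14 lay within 2-fold and 3 were higher in pyramidal neurons, the third being the neurofilament Nefm with an adjusted p of 0.0584 without mouse 4.

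Mice exposed to UCMS offered the same contrast in other animals. There 615 of 18581 genes were called (3.31%), 224 higher in pyramidal and 391 in VIP neurons. Of the 613 genes called in control mice, 611 were tested in UCMS mice, and 591 (96.7%) had the same direction, where 64.8% of all 15648 genes tested in both did. Called again were 330 (54.0% of those tested and 53.7% of the UCMS calls), 101 of them higher in pyramidal and 229 in VIP neurons, and none was called in the opposite direction. Adarb2 had a difference of -7.21 in UCMS mice, Gad1 -5.01, Cnr1 -2.12 and Cplx2 -1.71, beside -6.95, -4.58, -2.11 and -1.74 in controls. Among pyramidal genes Rasgrp1 had 1.56, Sv2b 1.55, Grik3 2.17 and Kcng1 2.40, and Bsn 0.72, below 2-fold. Neither Oprl1 (-0.01) nor Egr3 (0.96) was called again.

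Whether the type difference itself changed with stress was tested as an interaction over all 40 libraries. By limma 0 of 17911 genes passed the adjusted threshold (smallest adjusted p = 0.995). An unadjusted p below 0.05 was reached by 777, a share below 0.05 of those tested, so nothing is read from that count. No other tool was run for the interaction. The 10 mice of each arm also differ in housing, single for UCMS and in groups for controls, so stress and housing cannot be told apart in this test.

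**Figure D5:**
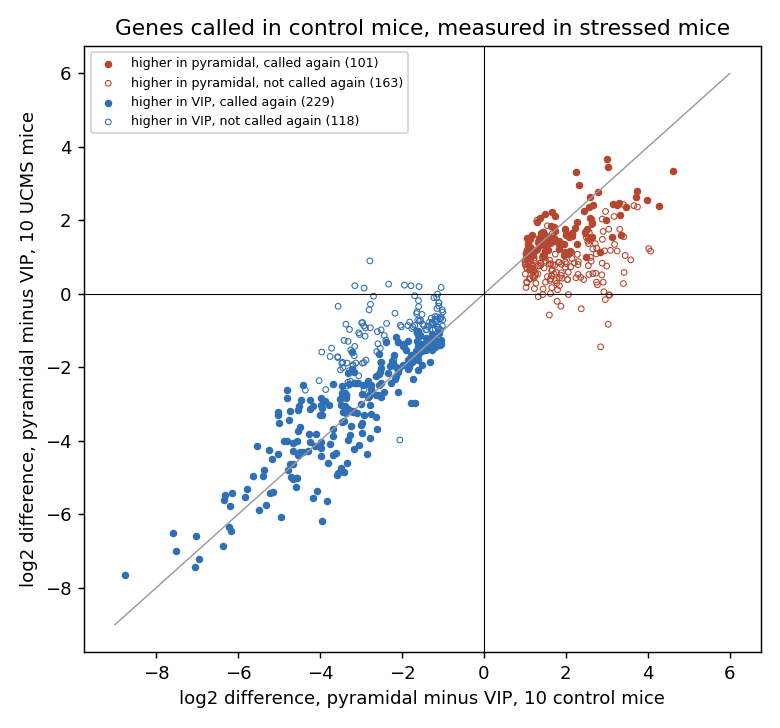
Log2 difference, pyramidal minus VIP, in 10 control mice (x axis) and in 10 UCMS mice (y axis) for the 611 genes called in control mice and tested in both; filled points were called again. Nearly all points share their sign, and the filled ones lie along the line of equality.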

How the data were processed

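RNA of laser-captured cells was made into libraries with a SMARTer Pico Input kit for stranded total RNA, per the labels' protocols. The deposited signal of each gene is its reads after division by the library's size factor, a step of the authors; HISAT2, SAMtools 1.3, DESeq2 and GRCm38 (mm10) come from the submitters' processing notes. No source used here names the read counter or its strand setting, so overlapping or antisense genes and near-identical copies cannot be told apart. Whole reads were recovered for 100% of values (within 0.01 reads) and used for depth, edgeR and DESeq2. Of 38879 genes 38636 matched GENCODE M21. Differences were fitted by limma 3.58.1 (trend, robust) on log2(normalized count + 4) for genes of mean at least 10 over the 20 libraries, with the mouse as a block and Benjamini-Hochberg adjustment; the added 4 shrinks low genes, and since libraries vary, a difference can exceed the ratio of means. Library measures were compared by exact sign-flip permutation over mice, two-sided, with 0.00195 as the smallest p possible. edgeR 4.0.16 and DESeq2 1.42.0 served as alternatives with other pseudocounts, filters, scalings and left-out mice. The floor of a count of 0 was 3 reads over the group; PCR copies are not separate molecules, so it covers counting error only. By the labels a shared number means a shared mouse; residuals of such pairs correlated at -0.00663 to 0.0253 over 10 pairs, none over 0.1. Named genes are the 12 strongest protein-coding calls per direction, and up to 5 called members and 3 within 2-fold of each list. The 12 narrowest shared genes, shared neuronal genes and 15 fixed genes were named too. Unnamed gene models were left out. Enpp2, Aldoc, Gria3 and Cux2 were named after their values were seen. The members and lists were chosen with earlier results of these data known. Because limma's prior outweighed most genes' own variance (9 residual degrees of freedom), fits with 1 finite prior and with own variances were added after seeing the data. Some genes that the naming rule selects are not reported here. On simulated data the limma fit called none of the unchanged genes and missed most of the 2-fold and 4-fold changes, so a gene not called is not shown to be equal.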

Additional observations from a re-analysis of the deposited data

Results flagged for a closer look

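Among 130 groups of 10 libraries (19 library measures and the leading genes in each type), 11 held 1 library set apart by a gap past Dixon's 95% critical value; chance alone sets apart about 1 group in 20. In VIP libraries, the summed oligodendrocyte markers reached 5410.2 in mouse 3 with 2521 as the next highest value, and the summed microglia markers 2213 in mouse 10 with 1248 next. The VIP library of mouse 10, one of the shallow ones, also had the lowest Sv2b (817, next 2133) and the highest Gad1 (6434, next 4751). Slc17a7 was highest in the VIP library of mouse 4 (8312, next 5518). In pyramidal libraries, Htr3a stood at 159 in mouse 9 and at 0.845 or less in the others, and Prox1 at 142 in mouse 7, next 63.5. Fat3 was lowest in mouse 10 (2527, next 3730.3) and Map1b in mouse 6 (19929, next 22772). Cplx3 was highest in mouse 3 in both types, 7.05 in the pyramidal library with 0 in all others and 278 in the VIP library, next 76.7. No cause was tested for any of these values.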

How the results depend on the processing

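The 613 calls in control mice stayed within 1.5 times of that number under pseudocounts of 1 and 16, a mean of at least 50, quantile normalization, scaling to protein-coding reads, library weights and edgeR. With no replicate block 582 genes were called, and of the named genes called, Grm3 and Egr1 lost the call; the mouse as a block follows from the labels, while the residuals of a mouse's libraries did not correlate. Without a filter on low values 386 were called (131 higher in pyramidal) and 8025 lay within 2-fold, of 30160 tested, many of them at or near 0 in both types; the cause of the lower count was not tested. DESeq2 called 1541 (744 higher in pyramidal, 797 in VIP neurons), 554 of them shared with the 613, and 49 had reads in at most 4 of 20 libraries. With each gene's own variance 261 were called (74 and 187), and in UCMS mice 296 (67 and 229), since limma's fitted variance then no longer replaces the gene's own; with 1 finite prior for all genes the control count was 512. edgeR called 474, of which 431 were shared. Leaving out each mouse in turn gave 518 to 599 calls, 222 to 257 higher in pyramidal and 278 to 356 in VIP neurons, and 1781 to 2070 genes within 2-fold. Chosen after seeing the data, leaving out mice 4, 6 and 10 gave 519 calls (183 and 336), 404 of them shared, and thinning all libraries to 3642579 reads gave 617 (273 and 344), 577 shared. Of 100 named genes that were called, 24 lost the call without at least 1 mouse, 34 lost it by own variance, and none reversed under any setting run. In UCMS mice quantile normalization gave 348 genes higher in pyramidal and 355 in VIP neurons in place of 224 and 391; the cause was not tested. The interaction gave 0 under each of its 4 alternatives. Among library measures, the astrocyte marker sum passed only in the unpaired permutation test (adjusted p = 0.0409). The depth of the VIP libraries limits statements on low genes: 130 of the 265 pyramidal genes were at 0 in at least 1 VIP library.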

Other observations

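Over all genes 3.51% were called, so nothing is read from the low counts of the short lists that follow. Of 13 protein genes of the mitochondrial genome, 12 lay within 2-fold and 0 were called by limma or by edgeR (1 passed the adjusted p alone). That one was mt-Cytb, of respiratory complex III, 8021 ± 1503 in pyramidal and 9811 ± 1911 in VIP libraries (SD, n = 10; log2 difference -0.29, 95% interval -0.45 to -0.12). All 13 had a lower mean of log values in pyramidal libraries, with a median difference of -0.20. Of 41 nuclear genes of oxidative phosphorylation 1 was called, Sdhb of complex II, which had an adjusted p of 0.2 without mouse 2. Their median difference was 0.25 with 30 of the 41 on the pyramidal side, beside 0.36 with 15 of 20 for the housekeeping and 0.24 with 17 of 26 for the general neuronal genes. Of 20 housekeeping genes 11 lay within 2-fold and 0 were called by limma or edgeR (3 passed the adjusted p alone, among them Ywhaz at 0.57, 95% interval 0.37 to 0.76). Of 10 genes of glutamate supply and uptake, 1 was higher in pyramidal neurons, Got1, which supplies glutamate by transamination, at 1009.9 ± 215 and 507 ± 221; it fell to a log2 difference of 0.91, adjusted p = 0.0434 without mouse 10. Got1 averaged 2495 in PV libraries, above both.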
